A study of Homo sapiens with 6 samples.

Results

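The genes described here encode 9 factors that hold RNA polymerase II in the promoter-proximal pause or release it into elongation: HEXIM1, LARP7, CDK9, CCNT1, CCNT2, BRD2, AFF4, NELFE and SUPT5H. They were chosen by name, and all 9 of 9 were found among the 20333 gene intervals of the deposited count table and passed the filter on low counts. Their lowest count in any library was 494, in LARP7. The assay was PRO-seq, a nuclear run-on in which polymerases that are already on the DNA add labelled nucleotides in permeabilised cells; sequencing of that RNA reports polymerase on the gene rather than stored mRNA. All libraries came from T47D, an established luminal breast cancer line, positive for the estrogen receptor and negative for HER2, in growth factor-complete medium. For 5 h they received the solvent DMSO, 500 nM GDC0068, which blocks the catalytic activity of the AKT kinases, or 100 nM INY-05-040, an AKT degrader that the labels call Degrader. The series describes 2 independent experiments, and each of these 3 arms had 2 libraries with the replicate numbers 1 and 2.

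Soon after a polymerase starts, the negative elongation factor NELF and the DRB-sensitivity-inducing factor DSIF, which contains SPT5, hold it a short way into the gene. Release needs the kinase P-TEFb, made of CDK9 and cyclin T1 or T2, which phosphorylates NELF, SPT5 and the polymerase itself. Much of P-TEFb is kept inactive by HEXIM1 on the 7SK RNA, which LARP7 stabilises, while BET bromodomain proteins and the super elongation complex bring active P-TEFb to chromatin. In breast cancer cells HEXIM1 is also known as a protein that binds the estrogen receptor and restrains its activity.

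The bases just upstream of the start site are shown for HEXIM1, CDK9, LARP7 and NELFE, since these were the members that passed the test in at least 1 contrast, alone or with the replicate number in the model. Each line holds the 250 bases before the RefSeq start site (GRCh38.p14), read on the gene's strand from 5′ to 3′. Capitals mark any match, on either strand, to the letters searched: the forkhead core GTAAACA, the E-box CACGTG, the ETS core CCGGAAG, the Goldberg-Hogness box TATAAA of core promoters, the Sp-family box GGGCGGG, the AP-1 site TGACTCA and the CRE palindrome TGACGTCA.
HEXIM1: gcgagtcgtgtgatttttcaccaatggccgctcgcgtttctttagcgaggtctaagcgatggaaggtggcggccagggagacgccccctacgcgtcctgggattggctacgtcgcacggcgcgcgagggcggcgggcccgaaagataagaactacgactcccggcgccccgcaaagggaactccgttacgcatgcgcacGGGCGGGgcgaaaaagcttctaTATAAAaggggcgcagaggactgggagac
CDK9: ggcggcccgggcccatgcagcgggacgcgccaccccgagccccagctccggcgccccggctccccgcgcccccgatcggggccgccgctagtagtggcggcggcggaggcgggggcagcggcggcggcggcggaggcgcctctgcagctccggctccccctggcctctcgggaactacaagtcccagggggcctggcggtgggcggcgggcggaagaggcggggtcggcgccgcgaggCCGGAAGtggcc
LARP7: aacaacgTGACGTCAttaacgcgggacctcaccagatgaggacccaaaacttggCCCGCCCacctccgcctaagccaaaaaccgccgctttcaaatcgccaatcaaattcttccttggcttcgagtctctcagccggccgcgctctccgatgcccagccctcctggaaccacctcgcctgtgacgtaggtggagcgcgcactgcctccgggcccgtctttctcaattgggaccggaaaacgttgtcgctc
NELFE: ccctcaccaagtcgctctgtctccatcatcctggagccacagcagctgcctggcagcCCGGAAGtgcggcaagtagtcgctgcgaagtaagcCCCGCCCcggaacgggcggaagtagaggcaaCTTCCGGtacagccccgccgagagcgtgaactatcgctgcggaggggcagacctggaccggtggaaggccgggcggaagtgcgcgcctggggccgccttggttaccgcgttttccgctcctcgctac

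These windows lie at chr17:45148225-45148474 (plus strand) for HEXIM1, chr9:127785784-127786033 (plus) for CDK9, chr4:112636893-112637142 (plus) for LARP7 and chr6:31958972-31959221 (minus) for NELFE. The RefSeq start was 0, 11, 31 and 9 bp from the start site in the deposited table, in that order. HEXIM1 was the 1 member of 9 with TATAAA, which lay 29 to 24 bases before its start and just downstream of GGGCGGG at 51 to 45 bases; TATAAA was present in 10.7% of the 35116 windows in the RefSeq table. CDK9 carried CCGGAAG 12 to 6 bases before its start in a window that was 82.0% G or C, against a median of 58.0% over all windows. NELFE held CCGGAAG on both strands and LARP7 held TGACGTCA, letters found in 8.52% and 1.65% of all windows. The forkhead core GTAAACA, present in 2.98% of all windows, was found in 0 of the 9 member windows, which says only that these letters are not in these 250 bases. The matches are a description of sequence, not of bound factors.

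Library totals ran from 25371819 to 32192576 counts, and counting error alone at the members' lowest counts was 1.33% (BRD2) to 4.50% (LARP7). This error is for counting only, since the handling of duplicates is not given in the sources used here. Of the 9 luminal markers all were above 1 CPM, with a summed level of 5334 to 5745 CPM over the 6 libraries; 0 of 5 basal markers were among the rows of the table, and of 8 markers of immune, endothelial and stromal cells only CD14 was, at 0.348 to 0.559 CPM. CPM are library-scaled counts with TMM factors from edgeR. Changes are log2 fold changes from 1 edgeR quasi-likelihood fit of all 6 libraries and 19902 genes, and "called" means that the p adjusted over those genes (Benjamini-Hochberg) was under 0.05. No spike-in values were used, so each change is relative to the bulk of genes. The submitters' processing notes name the fly build dm3 without a role. Whether a fly spike-in was added is not given in the sources used here.

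Levels per kb of interval separated the members widely. In DMSO, HEXIM1 stood at 36.6 ± 0.11 CPM per kb (SD, n = 2 here and below) and BRD2, a BET protein that reads acetylated histones, at 25.8 ± 1.6 CPM per kb. These levels were above those of 99.4% and 98.8% of the 17777 tested intervals of at least 1000 bp. CDK9, the kinase subunit, followed with 10.4 ± 0.0063 CPM per kb. NELFE, a subunit of NELF, had 3.81 ± 0.0072 CPM per kb and CCNT1, which encodes cyclin T1, 2.70 ± 0.15 CPM per kb. SUPT5H, which encodes SPT5, had 1.69 ± 0.046 CPM per kb, and AFF4, the scaffold of the super elongation complex, 1.65 ± 0.063 CPM per kb. CCNT2, which encodes cyclin T2, had 1.16 ± 0.022 CPM per kb and LARP7 0.909 ± 0.022 CPM per kb. From HEXIM1 down to CCNT1, each gene was above the next in every library, with no overlap over the 3 arms. SUPT5H and AFF4 could not be ordered: SUPT5H was the higher in 5 of 6 libraries and their DMSO values overlapped. CCNT2 was above LARP7 in each of the 6 libraries, but the ranges of the 2 genes over all arms overlapped. HEXIM1 (3627 bp) and CDK9 (4748 bp) are the shortest of the intervals, and a pause peak, where it was counted, fills a larger part of a short interval; which part of a gene was counted is not given in the sources used here.

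**Figure D1:**
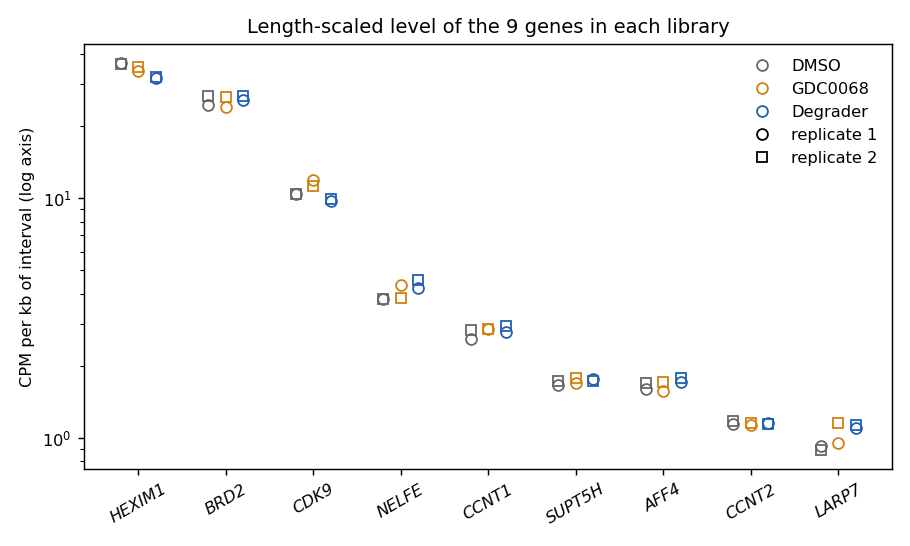
CPM per kb of interval on a log axis for the 9 genes, ordered by their DMSO mean, with 1 point per library (circles replicate 1, squares replicate 2; grey DMSO, orange GDC0068, blue Degrader). HEXIM1 is highest and LARP7 lowest, and the spread between genes is far larger than that between arms.

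Differences of the members from DMSO were small under either drug. Under Degrader 1 of 9 was called, HEXIM1, which was lower; over all genes tested 15.3% were called (7.88% lower). The median log2 fold change of the members was 0.04, against 0.00 over all genes tested, and their median absolute change was 0.08 against 0.13. Under GDC0068 0 of 9 members were called by edgeR, against 3.58% of all genes, and 1 of the 9 had an unadjusted p under 0.05; DESeq2 and limma-voom also called 0. Between the drugs, which were given at different doses chosen by the study for comparable suppression of signalling downstream of AKT, 0 of 9 were called by edgeR against 0.266% of all genes, 2 had an unadjusted p under 0.05, and DESeq2 and limma-voom called 0. Shared replicate numbers were taken to pair the libraries by experiment, which is inferred from the numbers. With the replicate number as a block the counts were 3 of 9 under Degrader (30.7% of all genes), 1 of 9 under GDC0068 (17.8%) and 2 of 9 between the drugs (10.4%). The members' share was therefore close to the background under Degrader and GDC0068, and a difference from it was not tested.

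**Figure D2:**
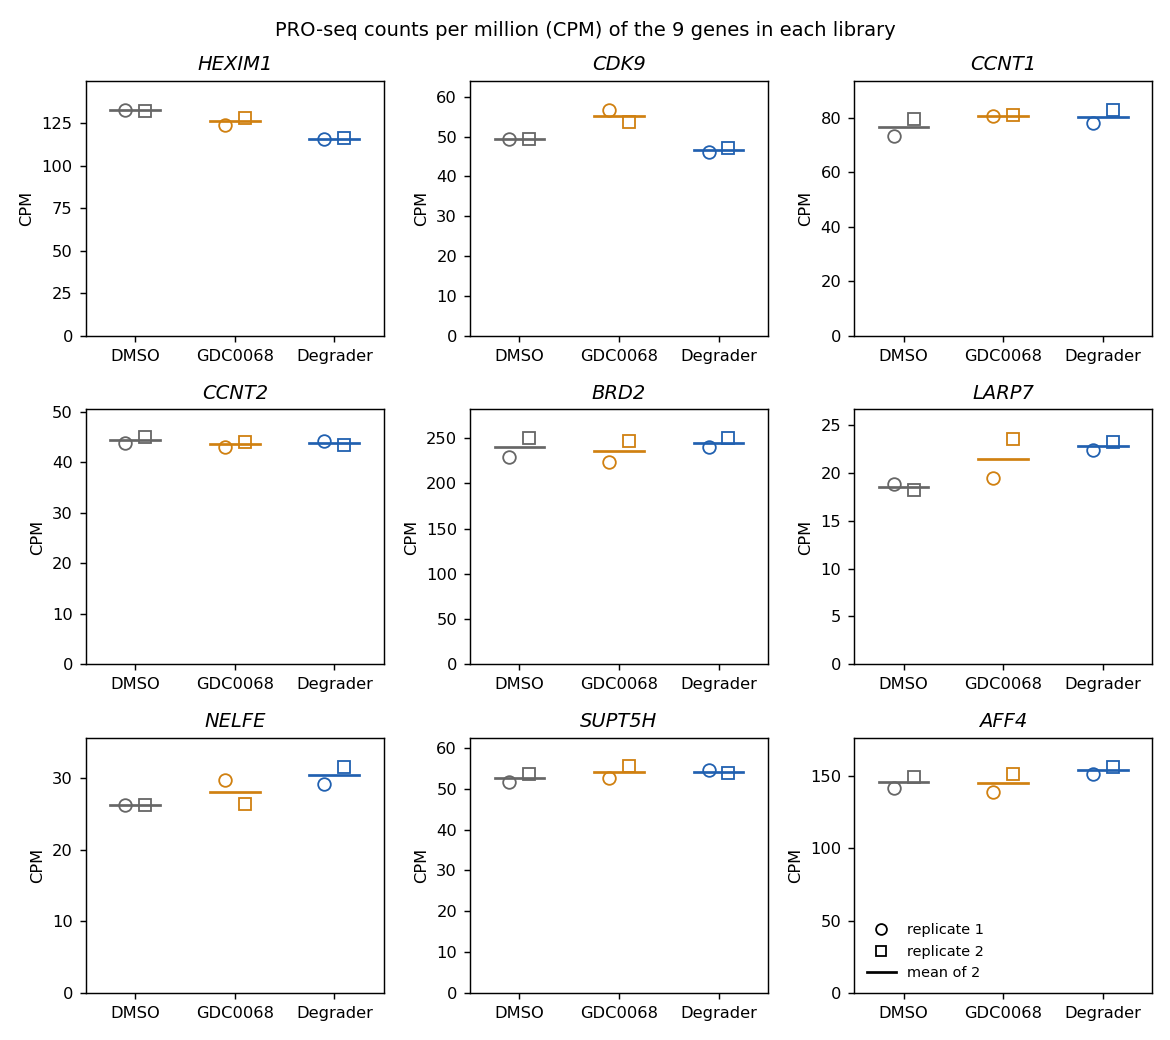
CPM of each gene in each library, from 0, by arm (circles replicate 1, squares replicate 2, bars the mean of 2). HEXIM1 is lower in both Degrader libraries (116 and 116 CPM) than in both DMSO libraries (133 and 132 CPM), and CDK9 is higher in both GDC0068 libraries and lower in both Degrader libraries than in DMSO.

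**Figure D3:**
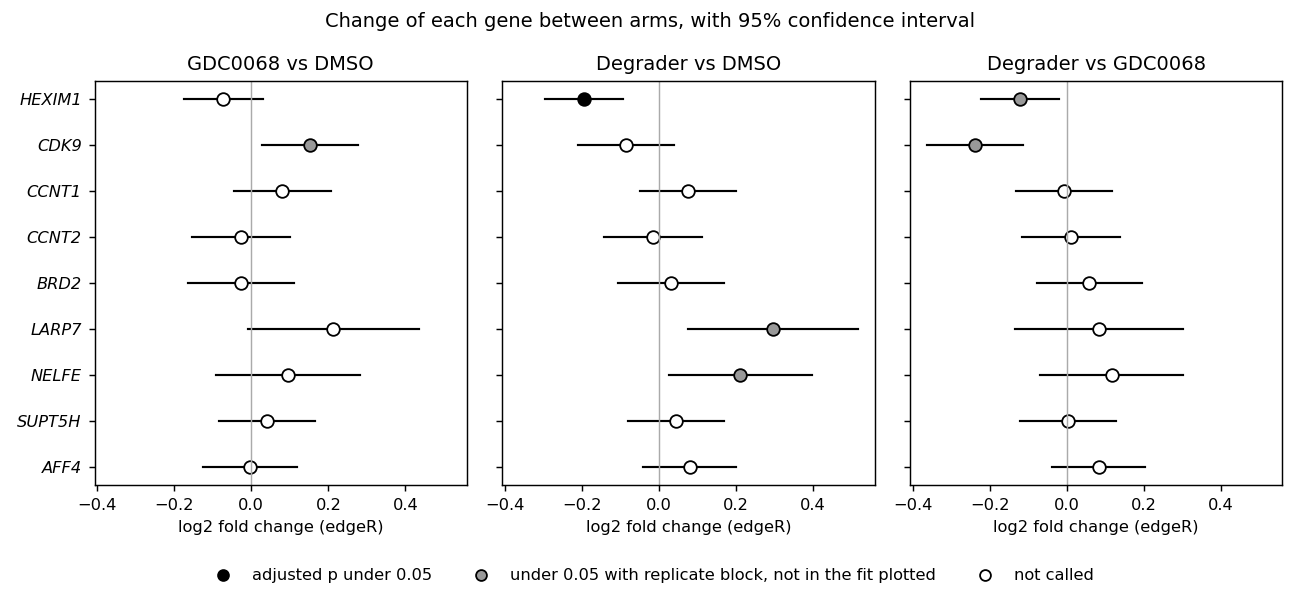
log2 fold change from edgeR (x axis) of each gene in the 3 contrasts, with 95% confidence intervals as lines. The filled point is HEXIM1 under Degrader (-0.19); grey points were called with the replicate block but not in the fit plotted, and the remaining intervals include changes in either direction or miss the adjusted threshold.

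HEXIM1, the inhibitor of P-TEFb (ENSG00000186834, chromosome 17, 45148475 to 45152101, plus strand; positions are as deposited, and the submitters' processing notes name hg38 and GRCh38 as the human build), was the 1 member called in the fit of all 6 libraries without the block. It gave 133 and 132 CPM in the DMSO libraries, 124 and 128 CPM under GDC0068 and 116 and 116 CPM under Degrader. The 3 arms did not overlap, with DMSO highest, GDC0068 between and Degrader lowest. The share of all genes with 3 separate arms was not counted, and for 2 arms it was 45.0% to 58.6% by contrast. HEXIM1 fell by 12.6% under Degrader, a log2 fold change of -0.19 (SE 0.0466, 95% interval -0.30 to -0.09, edgeR adjusted p = 0.0172; 1.12e-04 with the replicate block). Within the replicates the log2 ratio was -0.20 and -0.19. The size held when any 1 library was left out (-0.21 to -0.19), but the call was lost without DMSO replicate 1 (edgeR adjusted p = 0.102), DMSO replicate 2 (0.0658), Degrader replicate 1 (0.0932) or Degrader replicate 2 (0.0981). Under GDC0068 the change was -0.07 (95% interval -0.17 to 0.03, edgeR adjusted p = 0.417). The direct difference between Degrader and GDC0068 was -0.12 (SE 0.0468, edgeR adjusted p = 0.277), and only the replicate block brought it under the threshold (edgeR adjusted p = 0.0291).

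The HEXIM1 interval shares 1702 bp, or 46.9% of its length, with AC138150.1 on the opposite strand (chromosome 17, 45150400 to 45161510), a transcript that runs from beside HEXIM2 back into HEXIM1. Use of strand in the counting is not given in the sources used here, so reads of the pair might be mixed. AC138150.1 gave 212 and 212 CPM in DMSO, 207 and 215 CPM under GDC0068 and 231 and 227 CPM under Degrader. Its values thus lay above DMSO under Degrader, the opposite side to HEXIM1, at 0.11 on the log2 scale (edgeR adjusted p = 0.153; 0.0167 with the replicate block). HEXIM2, the paralog that also inhibits P-TEFb and starts 9813 bp beyond the end of HEXIM1, had 34.0 and 34.0 CPM in DMSO, 34.2 and 34.8 CPM under GDC0068 and 37.1 and 33.7 CPM under Degrader. HEXIM2 was not called under Degrader (0.06, edgeR adjusted p = 0.625; 0.532 with the block). The fall of HEXIM1 was therefore not accompanied by a called change in its neighbouring paralog; the difference between the 2 genes was not tested.

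By the root mean square difference of log2 CPM, centred on each gene, over the 6 libraries, the genes nearest to HEXIM1 in pattern among 13896 with at least 10 CPM were CEP131 (0.0130), RABL6 (0.0132) and DSCAML1 (0.0146). The median distance over the candidates was 0.115 and HEXIM1's own deviation from a flat line was 0.0812. CEP131 encodes a centrosomal protein, RABL6 a RAB-like GTPase and DSCAML1 a cell adhesion molecule. Their log2 fold changes under Degrader were -0.19, -0.21 and -0.18 (edgeR adjusted p of 0.0329, 0.0120 and 0.0323). So near a pattern over 6 libraries, taken from many genes, is a description only.

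LARP7, the protein that protects 7SK (ENSG00000174720, chromosome 4, 112637174 to 112657586, plus strand), went the other way in its values. It had 18.9 and 18.2 CPM in DMSO, 19.4 and 23.5 CPM under GDC0068 and 22.4 and 23.2 CPM under Degrader. Both Degrader libraries were above both DMSO libraries, while the GDC0068 libraries were spread from near DMSO to the Degrader level. The Degrader change of 0.30 (SE 0.101, 95% interval 0.08 to 0.52) was not called (edgeR adjusted p = 0.0693) but was called with the replicate block (0.0103), in the fit of the 4 libraries compared (0.0341) and when GDC0068 replicate 1 (0.0333) or replicate 2 (0.0347) was left out. Over all alternatives its edgeR, DESeq2 or limma-voom adjusted p ran from 0.0103 to 0.282. Under GDC0068 the change was 0.21 (edgeR adjusted p = 0.269), and it was 0.06 without GDC0068 replicate 2 and 0.34 without GDC0068 replicate 1 (edgeR adjusted p of 0.814 and 0.117). The LARP7 start overlaps by 219 bp the start of ZGRF1, a helicase gene on the opposite strand, which had 34.2 and 36.6 CPM in DMSO and 38.4 and 40.6 CPM under Degrader (0.16, edgeR adjusted p = 0.182; 0.0471 with the block). Values of both genes of this head-to-head pair were thus higher under Degrader, though neither was called in the fit of all 6 libraries without the block. Their overlap is 1.07% of the LARP7 interval, and use of strand in the counting is not given.

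The 7SK RNA itself, the scaffold of the complex and a product of RNA polymerase III, is represented by RN7SK, an interval of 92 bp with 13 to 40 counts per library. It had 0.778 and 0.478 CPM in DMSO, 1.57 and 1.18 CPM under GDC0068 and 1.18 and 0.755 CPM under Degrader. Both GDC0068 libraries were above both DMSO libraries, with a log2 fold change of 1.09 (SE 0.347) that was not called (edgeR adjusted p = 0.109; 0.0126 with the replicate block). With so few counts over a repeated sequence family, reads could be assigned to related copies.

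Among the P-TEFb subunits, the CDK9 values lay on different sides of DMSO under the drugs, with neither change called without the block. The values of the cyclins differed little. CDK9 (ENSG00000136807, chromosome 9, 127786045 to 127790792, plus strand) gave 49.5 and 49.5 CPM in DMSO, 56.6 and 53.5 CPM under GDC0068 and 46.1 and 47.2 CPM under Degrader. The 3 arms did not overlap: both GDC0068 libraries were above DMSO and both Degrader libraries below it. As for HEXIM1, the share of all genes with 3 separate arms was not counted. The GDC0068 change was 0.15 (SE 0.0568, 95% interval 0.03 to 0.28), which was not called (edgeR adjusted p = 0.160) but was called with the replicate block (0.0373). The Degrader change was -0.09 (95% interval -0.21 to 0.04, edgeR adjusted p = 0.354; 0.231 with the block). Between the drugs, the difference of Degrader from GDC0068 in CDK9 was -15.2%, on the log2 scale -0.24 (SE 0.0571, 95% interval -0.36 to -0.11). It was not called over all genes (edgeR adjusted p = 0.107, unadjusted p = 0.00139) but passed under the block (edgeR adjusted p = 0.00333), with a log2 ratio of -0.30 in replicate 1 and -0.18 in replicate 2. Leaving out any 1 library gave -0.27 to -0.20 for this difference.

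CCNT1 (chromosome 12, 48688458 to 48716707, minus strand) had 73.4 and 79.4 CPM in DMSO, 80.7 and 80.8 CPM under GDC0068 and 77.9 and 82.9 CPM under Degrader. Its changes were 0.08 under GDC0068 and 0.07 under Degrader (edgeR adjusted p of 0.467 and 0.421), and the DMSO and Degrader libraries overlapped. Without DMSO replicate 1 these values were 0.02 and 0.02, and without DMSO replicate 2 they were 0.14 and 0.13. Under Degrader the CCNT1 value was 0.12 without Degrader replicate 1 and 0.02 without Degrader replicate 2. CCNT2 (chromosome 2, 134918824 to 134957017, plus strand) had 43.7 and 44.9 CPM in DMSO, 43.1 and 43.9 CPM under GDC0068 and 44.2 and 43.5 CPM under Degrader, and all arms overlapped. For CCNT2 the 95% intervals were -0.14 to 0.11 under Degrader and -0.15 to 0.10 under GDC0068. These intervals are not adjusted over genes or contrasts and do not exclude a larger change. Between the drugs the intervals were -0.13 to 0.12 for CCNT1 and -0.12 to 0.14 for CCNT2.

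The factors that recruit P-TEFb showed no called change. BRD2 (chromosome 6, 32972198 to 32981505, plus strand) had 229 and 249.98 CPM in DMSO, 223 and 247 CPM under GDC0068 and 240.5 and 249.5 CPM under Degrader, and all arms overlapped. AFF4 (chromosome 5, 132875395 to 132963529, minus strand) had 142 and 149.6 CPM in DMSO, 139 and 151 CPM under GDC0068 and 151 and 156 CPM under Degrader. The Degrader libraries of AFF4 were just above those of DMSO, by a log2 difference of 0.08 (95% interval -0.04 to 0.20, edgeR adjusted p = 0.375; 0.0865 with the block). For BRD2 the changes were 0.03 under Degrader (95% interval -0.11 to 0.17) and -0.03 under GDC0068 (-0.16 to 0.11). In BRD2, AFF4 and CCNT1 replicate 2 was above replicate 1 in all 3 arms, by 3.75% to 10.4% in BRD2 and 3.49% to 9.04% in AFF4. An order kept in all 3 arms was seen in 3 of the 9 members and in 41.8% of all genes tested. With the replicate number as a block the SE of the Degrader change was 0.564 times as large in BRD2 and 0.626 times in AFF4, and their calls were the same.

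The pause factors were NELFE, the RNA-binding subunit of NELF, and SUPT5H. NELFE (ENSG00000204356, chromosome 6, 31952087 to 31958962, minus strand) had 26.2 and 26.2 CPM in DMSO, 29.8 and 26.3 CPM under GDC0068 and 29.2 and 31.5 CPM under Degrader. Both Degrader libraries were above both DMSO libraries, and 1 of the GDC0068 libraries was at the DMSO level. The Degrader change of 0.21 (SE 0.0846, 95% interval 0.03 to 0.40) was not called (edgeR adjusted p = 0.117) but was called with the replicate block (0.0335); leaving out 1 library gave 0.15 to 0.26. Under GDC0068 the value was 0.10 (edgeR adjusted p = 0.582), 0.00 without GDC0068 replicate 1 and 0.18 without GDC0068 replicate 2. SUPT5H (chromosome 19, 39445582 to 39476670, plus strand) had 51.6 and 53.6 CPM in DMSO, 52.6 and 55.5 CPM under GDC0068 and 54.7 and 53.8 CPM under Degrader. Its changes were 0.04 under either drug (edgeR adjusted p of 0.657 under Degrader and 0.739 under GDC0068), and between the drugs 0.00 (95% interval -0.12 to 0.13).

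Counted without a test, the arms did not overlap in 6 of 9 members under Degrader against DMSO (58.6% of all genes tested), in 5 of 9 under GDC0068 (50.1%) and in 2 of 9 between the drugs (45.0%). With 2 libraries a side, an exact permutation test cannot give a p below 0.333. The same DMSO libraries serve as control for either drug, so the values of the drugs are set side by side and not treated as independent.

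Ratios of counts between members within 1 library do not depend on the scaling between libraries. The ratio of HEXIM1 to LARP7 counts was 7.04 and 7.26 in DMSO, 6.38 and 5.46 under GDC0068 and 5.16 and 5.02 under Degrader. No arms overlapped, and the mean log2 ratio was 2.84, 2.56 and 2.35. The ratio of the inhibitor HEXIM1 to its target kinase CDK9 was 2.68 and 2.67 in DMSO, 2.19 and 2.39 under GDC0068 and 2.51 and 2.46 under Degrader. Both drugs thus lay below DMSO in this ratio. Under GDC0068 CDK9 lay above its DMSO level and HEXIM1 below its own, while under Degrader both genes lay below DMSO. Of these changes only that of HEXIM1 under Degrader was called without the block. The ratio of CCNT1 to CCNT2 was 1.68 and 1.77 in DMSO, 1.87 and 1.84 under GDC0068 and 1.76 and 1.91 under Degrader, with DMSO and Degrader overlapping. NELFE to SUPT5H was 0.507 and 0.489 in DMSO, 0.566 and 0.473 under GDC0068 and 0.534 and 0.586 under Degrader. These ratios were not tested. HEXIM1 and LARP7 had the lowest and highest log2 fold changes of the members under Degrader (-0.19 and 0.30). The separation of their ratio under Degrader therefore repeats those 2 values and is not separate support.

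**Figure D4:**
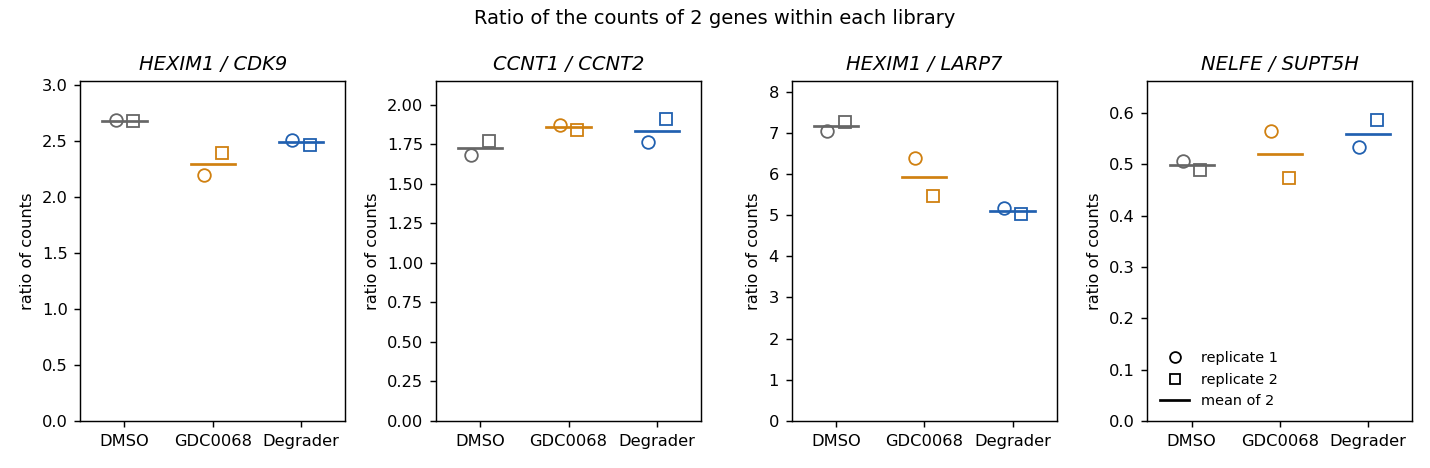
Ratio of the counts of 2 genes within each library, from 0, for 4 pairs (circles replicate 1, squares replicate 2, bars the mean of 2). The HEXIM1 to LARP7 ratio runs from 7.04 and 7.26 in DMSO to 5.16 and 5.02 under Degrader, with no overlap between arms. These are the members with the lowest and highest change under Degrader.

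Other genes of pausing and elongation were taken from 6 lists with 51 genes, all 51 tested. Under Degrader 4 were called higher and 2 lower, 11.8% of the 51 against 15.3% of all genes tested, and with the replicate block 5 and 8, 25.5% against 30.7%. DESeq2 called 4 of the 51 and limma-voom 7. The median log2 fold change was 0.00, as over all genes. Under GDC0068 and between the drugs 0 of 51 were called by edgeR, against 3.58% and 0.266% of all genes tested. In these contrasts 9 and 4 of the 51 had an unadjusted p under 0.05, DESeq2 called 0 and 1, and limma-voom called 0 in either. The block gave 4 higher and 4 lower under GDC0068 (15.7% against 17.8% of all genes). Between the drugs it gave 2 higher and 3 lower (9.80% against 10.4%). SUPT4H1, which encodes SPT4, the partner of SPT5 in DSIF, rose from 31.9 ± 1.5 to 40.6 ± 2.8 CPM under Degrader (0.35, SE 0.0716, edgeR adjusted p = 0.00812). It was the 1 gene called among 5 of the NELF, DSIF and pause list; NELFA, NELFB and NELFCD, the other NELF subunits, had log2 values of 0.00, 0.00 and -0.05 against DMSO (edgeR adjusted p of 0.996, 0.994 and 0.574).

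Of the 8 other genes of the super elongation complex, MLLT3, a reader of acylated histones also called AF9, rose from 61.0 ± 6.2 to 77.0 ± 4.7 CPM under Degrader (0.34, SE 0.0817, edgeR adjusted p = 0.0176). Of the 4 genes of the 7SK and BET list (HEXIM2, MEPCE, RN7SK and BRD3) and the 9 of the PAF and elongation list, 0 were called in any contrast by edgeR without the block, DESeq2 or limma-voom; the unadjusted p was under 0.05 for 1 under Degrader and 2 under GDC0068, and the block called 1 and 2. Among 13 genes for kinases and phosphatases of the polymerase tail, PPP1R10, a targeting subunit of protein phosphatase PP1, rose from 539 ± 27 to 630.3 ± 19 CPM (0.23, edgeR adjusted p = 0.0334). MNAT1, the assembly factor of the CDK7 kinase, rose from 153 ± 4.1 to 172 ± 3.9 CPM (0.16, edgeR adjusted p = 0.0439). Of the 12 polymerase II subunit genes, POLR2L fell from 47.3 ± 2.3 to 37.0 ± 1.8 CPM (-0.35, edgeR adjusted p = 0.00488) and POLR2G from 21.2 ± 0.56 to 17.2 ± 0.53 CPM (-0.30, edgeR adjusted p = 0.0425). POLR2A, the catalytic subunit, was at 157 ± 1.1 CPM in DMSO and 156 ± 8.4 CPM under Degrader (-0.02, edgeR adjusted p = 0.886). With DESeq2, MNAT1 and POLR2G were not called (adjusted p of 0.0903 and 0.0767). Of the 6 list genes called under Degrader, 0 kept the edgeR call without DMSO replicate 1 or without Degrader replicate 2, and SUPT4H1, MLLT3 and POLR2L kept it without DMSO replicate 2 or without Degrader replicate 1. The lists' medians ran from -0.06 to 0.07 under Degrader.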

How the data were processed

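PRO-seq counts of 6 T47D libraries (3 arms of 2) were used. The authors deposited raw counts per gene interval, whole numbers with unequal totals. The submitters' processing notes name cutadapt 1.14, Bowtie 1.2.2, SAMtools 1.3.1, HISAT2 2.2.1, limma and the builds hg38, GRCh38 and dm3, with no roles; the counting tool, the part of a gene counted, strand and duplicates are not given in the sources used here. In edgeR 4.0.16 (R 4.3.3), filterByExpr (minimum count 10, minimum total 15) removed 431 genes and kept 19902, TMM scaled the libraries, and 1 quasi-likelihood model (glmQLFit, glmQLFTest) with arm as its term was fitted to all 6 libraries (3 residual degrees of freedom). SE is the log2 fold change divided by the square root of F, and 95% intervals use the fit's degrees of freedom. The 2 libraries of an arm differed beyond sampling noise (chi-square per degree of freedom 5.01 to 6.95). Replicate numbers were taken to pair libraries by experiment, an inference from the numbers. Over genes with at least 10 CPM the deviations of such libraries from their arm means correlated at 0.419 to 0.492 (0.177 to 0.220 over all tested). DESeq2 1.42.0, limma-voom (limma 3.58.1), other scalings and filters, robust estimation, the replicate block, 4-library fits and leaving out each library were alternatives; the script was tested on simulated counts. One further gene of a list is not reported here. Members and lists were chosen with earlier results of these data known. Named were the members, up to 6 called list genes per contrast by adjusted p, the 3 nearest patterns of a called member and overlapping genes; NELFA, NELFB, NELFCD, POLR2A, HEXIM2 and RN7SK were added after their values were seen. Upstream windows come from RefSeq for 9 of 9 members; for BRD2 the nearest RefSeq start lay 603 bp from the deposited one. Starts are printed counting from 1, since the deposited start site column then matched 20333 of 20333 intervals.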

Additional observations from a re-analysis of the deposited data

How the results depend on the processing

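No member called in a contrast, with or without the block, changed sign in that contrast under any of the 15 alternatives; sign changes were seen only in values that no fit called, such as BRD2 under either drug. Under Degrader against DMSO, members called numbered 1, but 3 with the replicate block (HEXIM1, LARP7 and NELFE), 2 in the fit of the 4 libraries compared, and 0 to 2 when 1 library was left out; the 0 counts came from leaving out any DMSO or Degrader library and the 2 from leaving out a GDC0068 library. With the replicate block 1 member was called under GDC0068 (CDK9) and 2 between the drugs (HEXIM1 and CDK9), and every other alternative called 0 there. Over all genes the replicate block moved the counts from 3039 to 6114 under Degrader, from 712 to 3540 under GDC0068 and from 53 to 2065 between the drugs. Leaving out 1 library gave 931 to 3217, 37 to 546 and 5 to 63 genes. Between the drugs, the 4 libraries compared gave 23 genes, robust estimation 116 and DESeq2 141. The cause of these differences was not tested. RLE factors, library totals alone, no filter, a minimum of 1 CPM and limma-voom left the called members as in the fit reported. With 2 libraries per arm the half-width of a member's 95% interval was 0.102 to 0.221 on the log2 scale. Changes smaller than a member's own half-width could not be told from 0. The intervals are not adjusted over genes, so a call needed a larger change. LARP7 under Degrader (0.30, 95% interval 0.08 to 0.52) was not called without the block in the fit of all 6 libraries.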
